A study of Danio rerio with 8 samples.

Results

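Clustered Her7-only peaks are places in the zebrafish genome where a peak of YFP-tagged Her7 had no overlapping Her1 peak but had another Her7 peak close by. A Her7 peak was taken when it lay on 1 of the 25 numbered chromosomes, outside chromosome 4 from position 27000000 on, overlapped no Her1 peak by 1 bp or more, and had its summit at most 10 kb from the summit of another Her7 peak. This gave 1180 peaks of the 5591 in the Her7 list, out of 7652 peaks in the Her7 and Her1 lists together. The Her7 list came from embryos of the line Tg(her1:nls-mkate2,her7:her7-YFP), untreated, with an anti-GFP antibody (replicate 1). The Her1 list came from embryos of the line Tg(her1:her1-YFP), untreated, with the anti-GFPpoly antibody. The assay was CUT&Tag, which cuts and tags DNA near the protein an antibody recognises, on whole embryos at the bud stage, pooled at 120 per replicate. As the names of the lines give them, each tagged protein was driven by regulatory sequence of its own gene, and the Her7 line also carried a nuclear mKate2 reporter driven by that of her1. Whether the untagged proteins were still made is not stated in the labels. Whole embryos mix many tissues, and a peak list holds no markers with which to check them.

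Her1 and Her7 belong to the Hes/Her family of basic helix-loop-helix repressors. They bind DNA as dimers, recruit Groucho-type corepressors, and switch off their own genes in the cells of the presomitic mesoderm, which makes their expression oscillate. Several binding sites close together are a known feature of the promoters of such oscillating genes. The lists do not name genes. The gene table at hand describes the assembly GRCz12tu and shared 0 sequence names with the alternate contigs of the lists, and the build of the lists is not given in the sources used here. Domains are therefore given by position as deposited, counted from 1, with no gene name and no sequence.

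There was 1 peak list per protein, so no difference below has a replicate check and none was tested. The intervals are exact 95% binomial intervals and cover counting error only. Neighbouring peaks are not independent of each other. The Her7 line was sequenced on a MiSeq and the Her1 line on a NextSeq 500, and the antibodies differed, so protein, line, sequencer and antibody cannot be told apart. The members were chosen by the measured positions of the peaks and summits in both lists, so everything said of spacing, overlap and domain size is a description.

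The clustered Her7-only peaks made up 29.7% (28.3 to 31.1) of the 3977 Her7-only peaks of the region. The other 2797 were isolated, with no Her7 summit within 10 kb. When peaks with a local background over 10 times the floor, the lowest background in a list, were left out of both lists, the same rule gave 458 clustered Her7-only peaks in 149 domains, or 18.2% of the Her7-only peaks. In this count a Her7 peak whose overlapping Her1 peaks were all left out becomes Her7-only. Among the 458 Her7 peaks that overlapped a Her1 peak, which are called shared here, 315 (68.8%, 64.3 to 73.0) lay within 10 kb of another Her7 summit. Every one of the 25 chromosomes carried clustered Her7-only peaks. Their density was lowest on chromosome 6, at 0.316 per Mb, and highest on chromosome 25, at 2.38 per Mb, with a median of 0.902 per Mb over the chromosomes. Isolated Her7-only peaks varied less, between 1.70 per Mb on chromosome 1 and 2.55 per Mb on chromosome 21. On chromosome 25 the clustered peaks outnumbered the isolated ones, with 89 against 81, and 44 of the 89 belonged to 1 domain.

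The nearest other Her7 summit lay a median of 1863 bp away (interquartile range 1148 to 3872, closest 294 bp). It was within 1 kb for 223 members (18.9%), within 2 kb for 632 (53.6%) and within 5 kb for 981 (83.1%). Most members thus lay far inside the 10 kb limit. The members nearest to it had a neighbour at 9989 bp on chromosome 25 (fold enrichment 14.8) and at 9968 bp on chromosome 18, where a pair of members (fold enrichments 8.56 and 34.2) were each other's neighbours. The Her7-only peaks just beyond it had a neighbour at 10033 bp on chromosome 7 (fold enrichment 2.23), 10078 bp on chromosome 2 (7.07) and 10104 bp on chromosome 16 (12.5).

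Her7 summits at most 10 kb from the next were joined into domains. The 1180 members fell into 381 domains, which held 1416 Her7 peaks, the other 236 being shared with Her1. The domains spanned a median of 4.64 kb between their outermost summits (interquartile range 1.93 to 8.87 kb) and at most 149 kb. Together they spanned 3250.1 kb, or 0.252% of the chromosomes, each measured as far as its final peak. Pairs were the most frequent form, with 238 domains and 428 members (36.3%). A further 67 domains had 3 Her7 peaks, 28 had 4, 26 had 5 to 9, and 22 had 10 or more. These 22 large domains were few but held 353 members (29.9%). In 264 domains (69.3%, 64.4 to 73.9) all Her7 peaks were Her7-only, and these held 690 members. The remaining 117 domains, called mixed here, held 490 members and the 236 shared peaks.

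**Figure D1:**
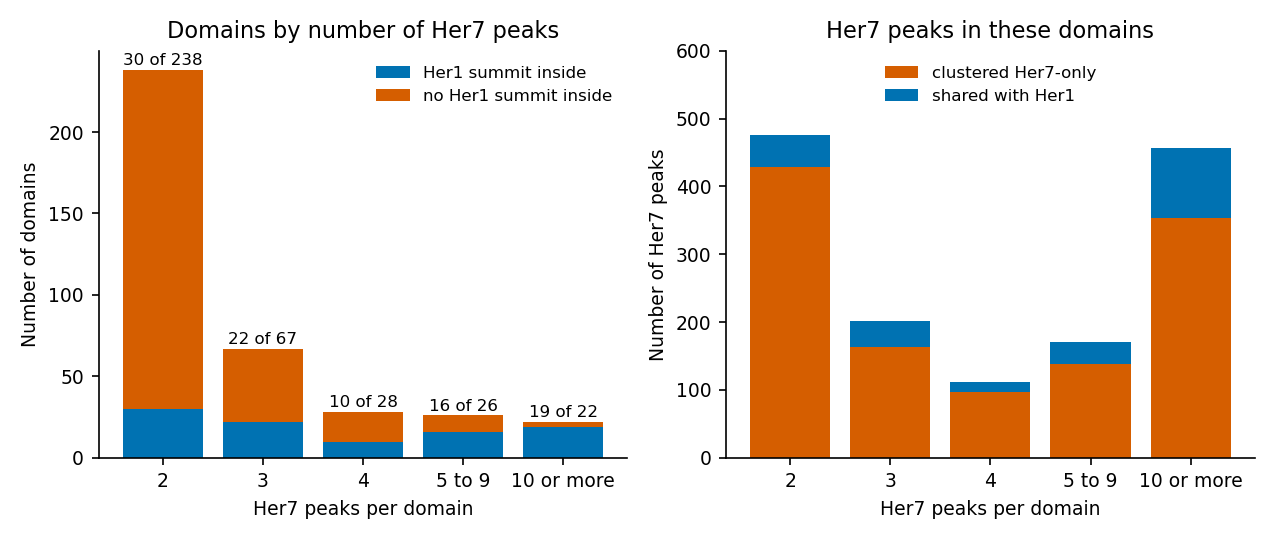
Domains with at least 1 clustered Her7-only peak, by the number of Her7 peaks they hold: on the left the number of domains with and without a Her1 summit between their outermost Her7 summits, on the right the Her7 peaks in them. Pairs dominate the number of domains (238 of 381), while the 22 domains of 10 or more hold 353 of the 1180 members and 19 of them hold a Her1 summit.

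Her1 peaks sat inside a minority of the domains. A Her1 summit lay between the outermost Her7 summits of 97 of the 381 domains (25.5%, 21.2 to 30.1). Over all 413 Her7 domains of 2 or more peaks, which include 32 made of shared peaks alone, the share was 30.0%. When Her1 summits up to 10 kb outside were counted as well, 145 domains (38.1%, 33.2 to 43.1) had one. The 97 domains held 224 Her1 summits, which is 13.2% of the 1691 Her1 peaks of the region. Of these, 189 overlapped a Her7 peak and 35 did not. Her1 peaks had a density of 68.9 per Mb inside the domains and 1.14 per Mb outside them. The domains were drawn from Her7 summits, those of shared peaks included, so part of this difference follows from how they were drawn. A domain with a shared Her7 peak has a Her1 peak in or beside it by definition. Of the 264 domains of Her7-only peaks alone, 11 (4.17%, 2.10 to 7.33) held a Her1 summit, and 28 (10.6%, 7.16 to 15.0) had one inside or within 10 kb.

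Occupancy by Her1 differed by domain size among the 381 domains with a clustered Her7-only peak. The 32 domains of shared peaks alone are left out by the rule. Of the 315 clustered shared peaks, 236 lay in the 381 domains, so few are left for these 32 and most of them must be pairs. A Her1 summit lay inside 124 of all 413 domains and 97 of the 381, so most of the 32 held one. Leaving them out thus lowered the share for pairs. How far this adds to the difference by size was not computed. A Her1 summit was found in 30 of 238 pairs (12.6%, 8.67 to 17.5), 22 of 67 domains of 3 (32.8%, 21.8 to 45.4), 10 of 28 domains of 4 (35.7%, 18.6 to 55.9), 16 of 26 domains of 5 to 9 (61.5%, 40.6 to 79.8) and 19 of 22 large domains (86.4%, 65.1 to 97.1). This count leaves out Her1 summits that lie just beyond an end summit: 48 pairs contained a shared peak, but 30 pairs had a Her1 summit between their summits. Of those 30 pairs, 6 were Her7-only on both sides, so the rest came from the 48. With Her1 summits up to 10 kb outside included, the shares were 28.6% for pairs, 46.3% for domains of 3, 39.3% for domains of 4, 61.5% for domains of 5 to 9 and 86.4% for large domains, so that domains of 3 and of 4 changed places. The median span also differed, with 2.77 kb for pairs and 44.5 kb for large domains. Per kb of domain, Her1 summits numbered 0.0382 in pairs, 0.0654 in domains of 3, 0.0495 in domains of 4, 0.0685 in domains of 5 to 9 and 0.101 in large domains. The 3 large domains with no Her1 summit lay on chromosomes 2, 4 and 17.

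Seen from the single peak, a Her1 summit lay within 10 kb of 468 of the 1180 clustered Her7-only peaks (39.7%, 36.9 to 42.5) and of 127 of the 2797 isolated ones (4.54%, 3.80 to 5.38). The share over all Her7-only peaks was 15.0%. By the rule, no isolated peak can have the summit of a shared peak within 10 kb, whereas a clustered peak can. Part of the gap between clustered and isolated peaks therefore follows from the selection. The median distance to the nearest Her1 summit was 25807 bp for clustered and 321862 bp for isolated Her7-only peaks. In the mixed domains, where a Her1 peak is near by definition, 408 of 490 members (83.3%, 79.7 to 86.5) had a Her1 summit within 10 kb. In the domains without a shared peak it was 60 of 690 members (8.70%, 6.70 to 11.1). A shared peak was the nearest Her7 neighbour of 165 members (14.0%). Without the large domains, 231 of 827 members (27.9%, 24.9 to 31.1) had a Her1 summit within 10 kb. Among Her7-only peaks whose own background was at most 10 times the floor, the share was 162 of 527 for clustered (30.7%) and 63 of 1943 for isolated peaks (3.24%), with no limit on the background of the Her1 peaks. The selection acts on this comparison in the same way.

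**Figure D2:**
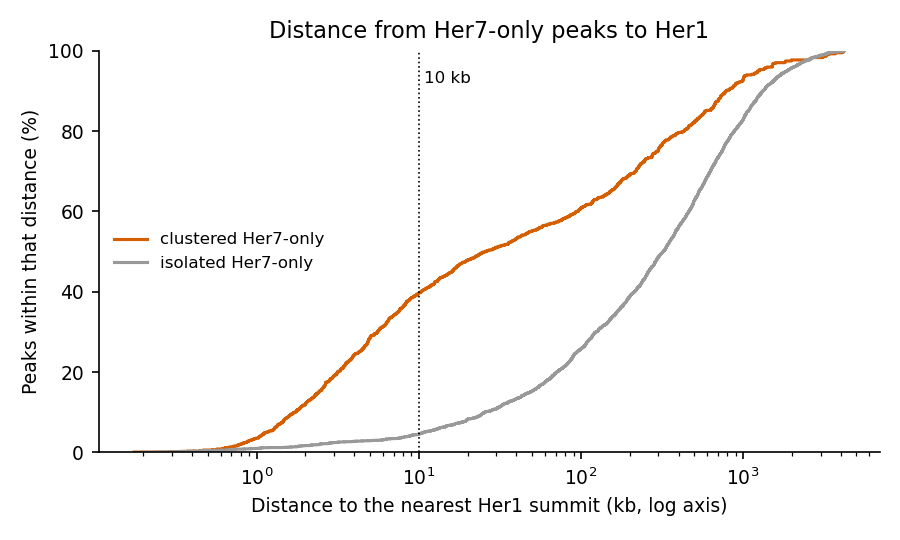
Share of clustered (orange, n = 1180) and isolated (grey, n = 2797) Her7-only peaks whose nearest Her1 summit lies within the distance on the log-scaled x axis. At 10 kb, the dotted line, the curves stand at 39.7% for clustered and 4.54% for isolated peaks. By the rule, isolated peaks have no shared peak summit within 10 kb, so part of this gap follows from the selection.

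The strength of the peaks is given by 3 values. The fold enrichment at the summit is the authors' own ratio over the local background that their caller estimated. The pileup is the number of fragments stacked at the summit, and the local background is given in multiples of the floor, the lowest background in a list (0.169 fragments for Her7, 0.0330 for Her1). The last 2 were computed from the deposited values. Clustered Her7-only peaks had a median pileup of 46.5 fragments (interquartile range 20 to 108), against 38 (14 to 77) for isolated ones. Their fold enrichment was lower, with a median of 8.38 (5.13 to 16.3) against 12.9 (6.85 to 31.6). Their local background was higher, with a median of 13.8 times the floor (4.15 to 71.6) against 3.32 times (1.23 to 15.2). It exceeded 10 times the floor at 653 clustered peaks (55.3%, 52.4 to 58.2) and at 854 isolated peaks (30.5%, 28.8 to 32.3), with 37.9% over all Her7-only peaks. Shared Her7 peaks had higher median backgrounds than either, 24.9 times the floor when clustered and 17.8 times when isolated. The members of mixed and of unmixed domains differed in these values. The 490 members of mixed domains had a median pileup of 68 fragments, a median fold enrichment of 6.86 and a median background of 28.9 times the floor. The 690 members of domains without a shared peak had medians of 39 fragments, 9.46 and 10.2 times, so their median pileup was within 1 fragment of that of isolated peaks. Whether neighbouring peaks themselves add to the local background was not tested. Clustered peaks were also wider, with a median of 453 bp against 371 bp.

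**Figure D3:**
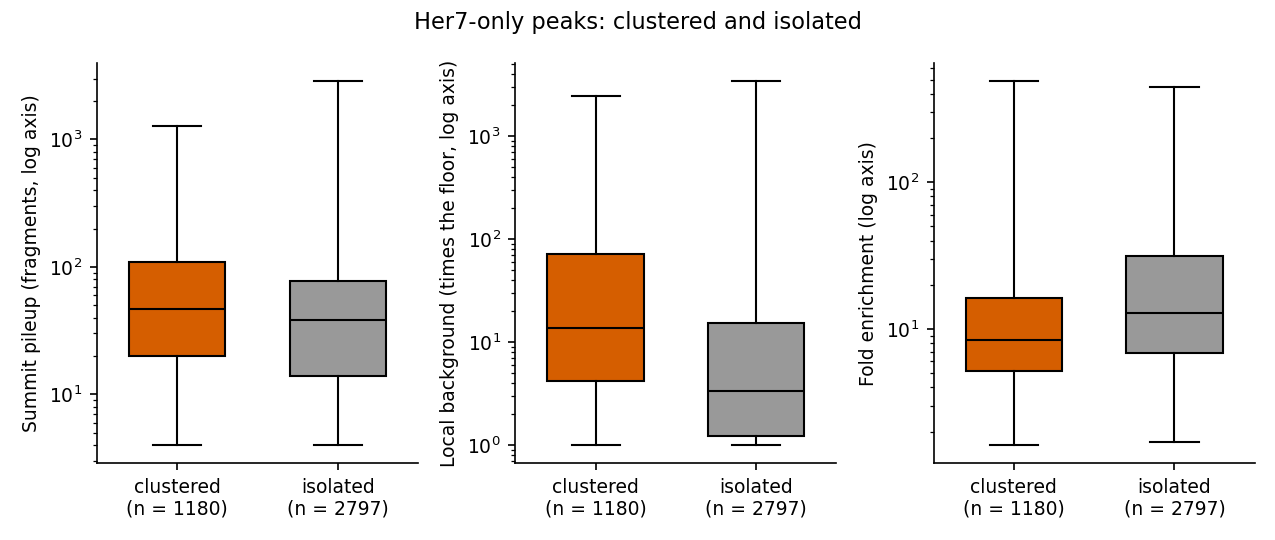
Summit pileup, local background and fold enrichment of clustered (orange) and isolated (grey) Her7-only peaks on log axes: boxes span the quartiles with the median as a line, and whiskers reach the lowest and highest peak. Clustered peaks have the higher median pileup (46.5 against 38 fragments), the higher median background (13.8 against 3.32 times the floor) and the lower median fold (8.38 against 12.9).

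In mixed domains a shared peak had the highest pileup in 79 of the 117 domains (67.5%, 58.2 to 75.9). A shared peak had the highest fold enrichment in 67 (57.3%, 47.8 to 66.4). Over all these domains, 236 of 726 Her7 peaks (32.5%) were shared. The share expected domain by domain, which depends on the number of peaks of each kind, was not computed. Of the 117 mixed domains, 48 were pairs of 1 member and 1 shared peak, and the other mixed domains held 1 or more of each. A member's pileup was a median of 0.252 times that of the strongest shared peak of its domain, and 49 of the 490 members exceeded it. Still, 184 members (37.6%, 33.2 to 42.0) exceeded the weakest shared peak of their domain. The floor of the Her1 list was lower than that of the Her7 list by a factor of 5.11. Its lowest pileup was 3 fragments, so a Her1 peak below that pileup would not be listed. The lowest pileup of a clustered Her7-only peak was 4 fragments. Whether the lists differed in depth in reads is not stated.

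The summits of a pair were compared in pileup. No such ratio was computed for Her7-only peaks that are not neighbours, so similar strength is not shown to be particular to pairs. Of the 238 pairs, 190 consisted of Her7-only peaks on both sides, a median of 2.66 kb apart. The stronger summit had a median of 1.75 times the pileup of the weaker (interquartile range 1.27 to 3.25), and in 110 pairs (57.9%, 50.5 to 65.0) at most 2 times. Of these 190 pairs, 6 had a Her1 summit between them.

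The strongest members lay together in 1 domain of 13 Her7 peaks on chromosome 11, from 41963403 to 42011754. It held the 4 members with the highest −log10 q of all. Along the domain, the 6 members had pileups of 88 (summit at 41963403), 714 (41972014), 488 (41978889), 431 (41996255), 339 (42002957) and 192 fragments (42004354). Their fold enrichments were 65.2, 487, 232, 369.6, 251 and 26.2 in the same order. The 7 shared peaks between and beside them had 1435, 1990, 1371, 405, 416, 7274 and 685 fragments. The member at 41972014 thus exceeded 3 of the 7 shared peaks, and the members at 41978889 and 41996255 exceeded 2.

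Her1 had a peak at each of the 7 shared positions of this domain, with summits 21 to 123 bp from those of Her7. The Her1 pileups were 62, 40, 13, 33, 41, 376 and 41 fragments, that is between 0.948% and 9.86% of the Her7 pileup at the same place, with a median of 5.17%. These percentages are not scaled for depth, and the floors of the 2 lists differ by a factor of 5.11. They do not measure relative occupancy. By fold enrichment, the shared peaks had 34.3 to 6225 for Her7, and the Her1 peaks had 13.1 to 359. Near the 6 members the closest Her1 summits lay 1818 to 6470 bp away. Within the same 48.4 kb, Her7 peaks with and without a Her1 peak thus lay interspersed. The last Her1 summit lay 25 bp beyond the outermost Her7 summit, so 6 Her1 summits count as inside.

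**Figure D4:**
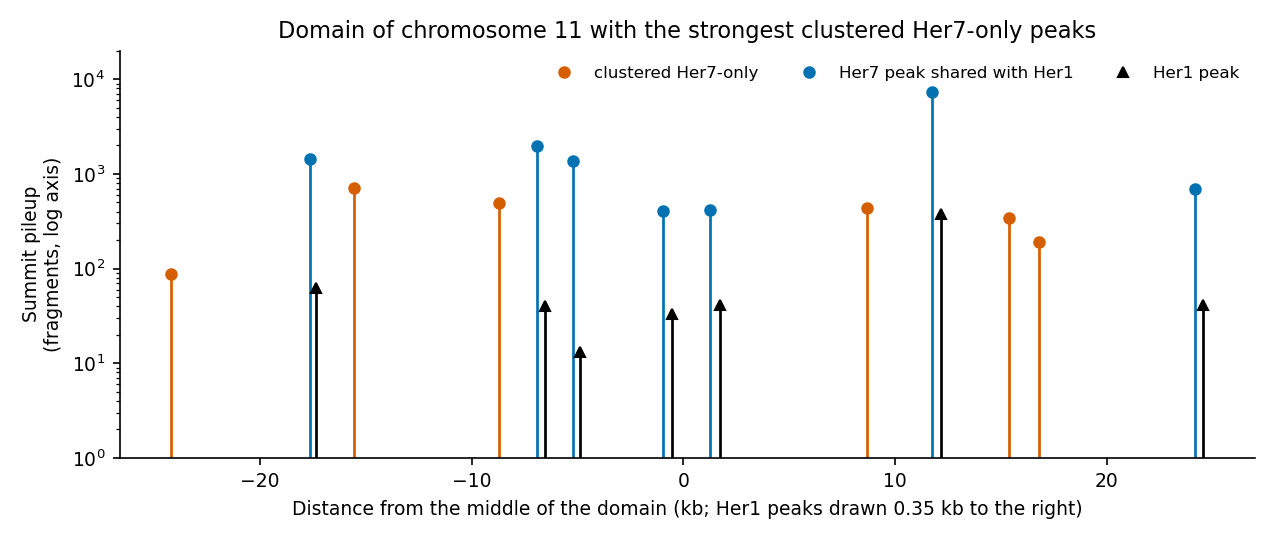
Summit pileup on a log axis against distance from the middle of the chromosome 11 domain: clustered Her7-only peaks (orange), Her7 peaks shared with Her1 (blue) and Her1 peaks (black triangles, drawn slightly to the right). The 7 Her1 peaks, with 13 to 376 fragments, stand beside the 7 shared peaks, and the 6 Her7-only peaks, with 88 to 714 fragments, have none beside them. Pileups are not scaled for depth between the lists.

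The other 6 of the 10 strongest members by −log10 q lay in separate domains. On chromosome 20 a member at 29507017 had a fold enrichment of 31.2 and 456 fragments, and formed a pair with a shared peak, with a Her1 summit 979 bp away. On chromosome 22 a member at 18746750 had a fold enrichment of 41.9 and 384 fragments, and also formed a pair with a shared peak. No Her1 summit lay inside this pair, and the one nearest to the member was 2081 bp away. The nearest Her1 summits of the next 3 were much farther. On chromosome 25 a member at 36333965 (fold enrichment 38.5, 396 fragments) ended a row of 3 members, and its nearest Her1 summit was 106315 bp away. On chromosome 23 the member at 43613362 (70.9, 311 fragments) had a weaker member 1205 bp away and no Her1 summit within 950594 bp. On chromosome 5 the member at 431611 (17.1, 536 fragments) stood on a background of 179.8 times the floor, with the nearest Her1 summit at 84050 bp. The members on chromosomes 20, 22, 25 and 23 stood on 80.9, 48.6, 55.2 and 20.2 times the floor. The last, on chromosome 16 at 18198060 (127, 212 fragments), stood on 3.99 times the floor. It belongs to 1 of the large domains described next.

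The 4 domains with the widest span held 175 Her7 peaks in 425 kb, 141 of them members (11.9% of all), and 41 Her1 summits. The widest lay on chromosome 24 from 12403746 to 12552992, with 57 Her7 peaks, 45 of them members, and 16 Her1 summits. The member summits had fold enrichments of 3.36 to 33.5 (median 9.37) and pileups of 11 to 60 fragments (median 19). The 12 shared peaks were spread over its whole length. The first 3, at its left end, had 494, 813 and 1324 fragments, and the other 9 had 18 to 107. Those first 3 stood on backgrounds of 19.6, 201 and 531 times the floor, with fold enrichments of 115, 23.4 and 14.6. The Her1 pileup was highest at the same end, with 433 fragments at 12416440 on 572 times the Her1 floor (fold enrichment 21.8). By fold enrichment the highest Her1 peak was the one at 12404058, with 37.0. On chromosome 25, from 26279111 to 26388283, 44 of 46 Her7 peaks were members (fold enrichment 4.65 to 50.0, median 9.47, and 6 to 59 fragments, median 14). Her1 had 5 summits there, with 3 to 13 fragments.

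The domain of chromosome 16, from 18174421 to 18265255, had 31 members among 38 Her7 peaks and 7 Her1 summits. Its strongest member by fold, 127 at 18198060, exceeded each of its 7 shared peaks, whose fold enrichments were 7.12 to 40.2. By pileup the shared peak at 18232574 was higher, with 313 against 212 fragments. On chromosome 12, from 14326570 to 14402370, 21 members lay among 13 shared peaks, and 13 Her1 summits lay inside. Peaks covered 58.0% of the length of this domain, against 24.0% on chromosome 25. The strongest member, at 14359355 with a fold enrichment of 60.6, stood 1342 bp from the nearest Her1 summit. In these 4 domains the median background at members was low, between 2.70 and 8.17 times the floor.

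The next domains by number of peaks differed in background. On chromosome 8, from 34769635 to 34812652, 19 of 25 Her7 peaks were members, with a median fold enrichment of 3.74, a median pileup of 155 and a median background of 214 times the floor. On chromosome 2, from 19423230 to 19486124, 22 of 24 were members, with medians of 3.93, 186 and 312 times. Her1 had 6 summits in the first and 2 in the second, and its own background was raised there too, to medians of 313 and 563 times the Her1 floor.

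The 22 large domains split along this line. In 8 of them, on 8 chromosomes, the median background at members was at most 10 times the floor. Their 188 members had a median fold enrichment of 9.72 and a median pileup of 19 fragments. In 11 it exceeded 100 times (114 to 922), and their 142 members had a median fold enrichment of 3.68 and a median pileup of 206 fragments. A Her1 summit lay inside 11 of the 11 with high background and 6 of the 8 with low background. The remaining 3 lay between. The background of members alone set these groups. In the low group, the domain of chromosome 7 from 64598313 to 64655971 had a median member background of 2.56 times the floor. Its members reached 551 times the floor, and its Her1 peaks stood on a median of 304 times the Her1 floor. Shared peaks made up 20.7% of the Her7 peaks in the domains of high background, 50% (23 of 46) in the 3 between and 19.0% in those of low background. The 3 domains between were unlike each other. They had 11 of 12 peaks shared on chromosome 10, 12 of 18 on chromosome 11 and 0 of 16 on chromosome 2. The domain of chromosome 10 was placed there by its 1 member, at 21.7 times the floor.

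**Figure D5:**
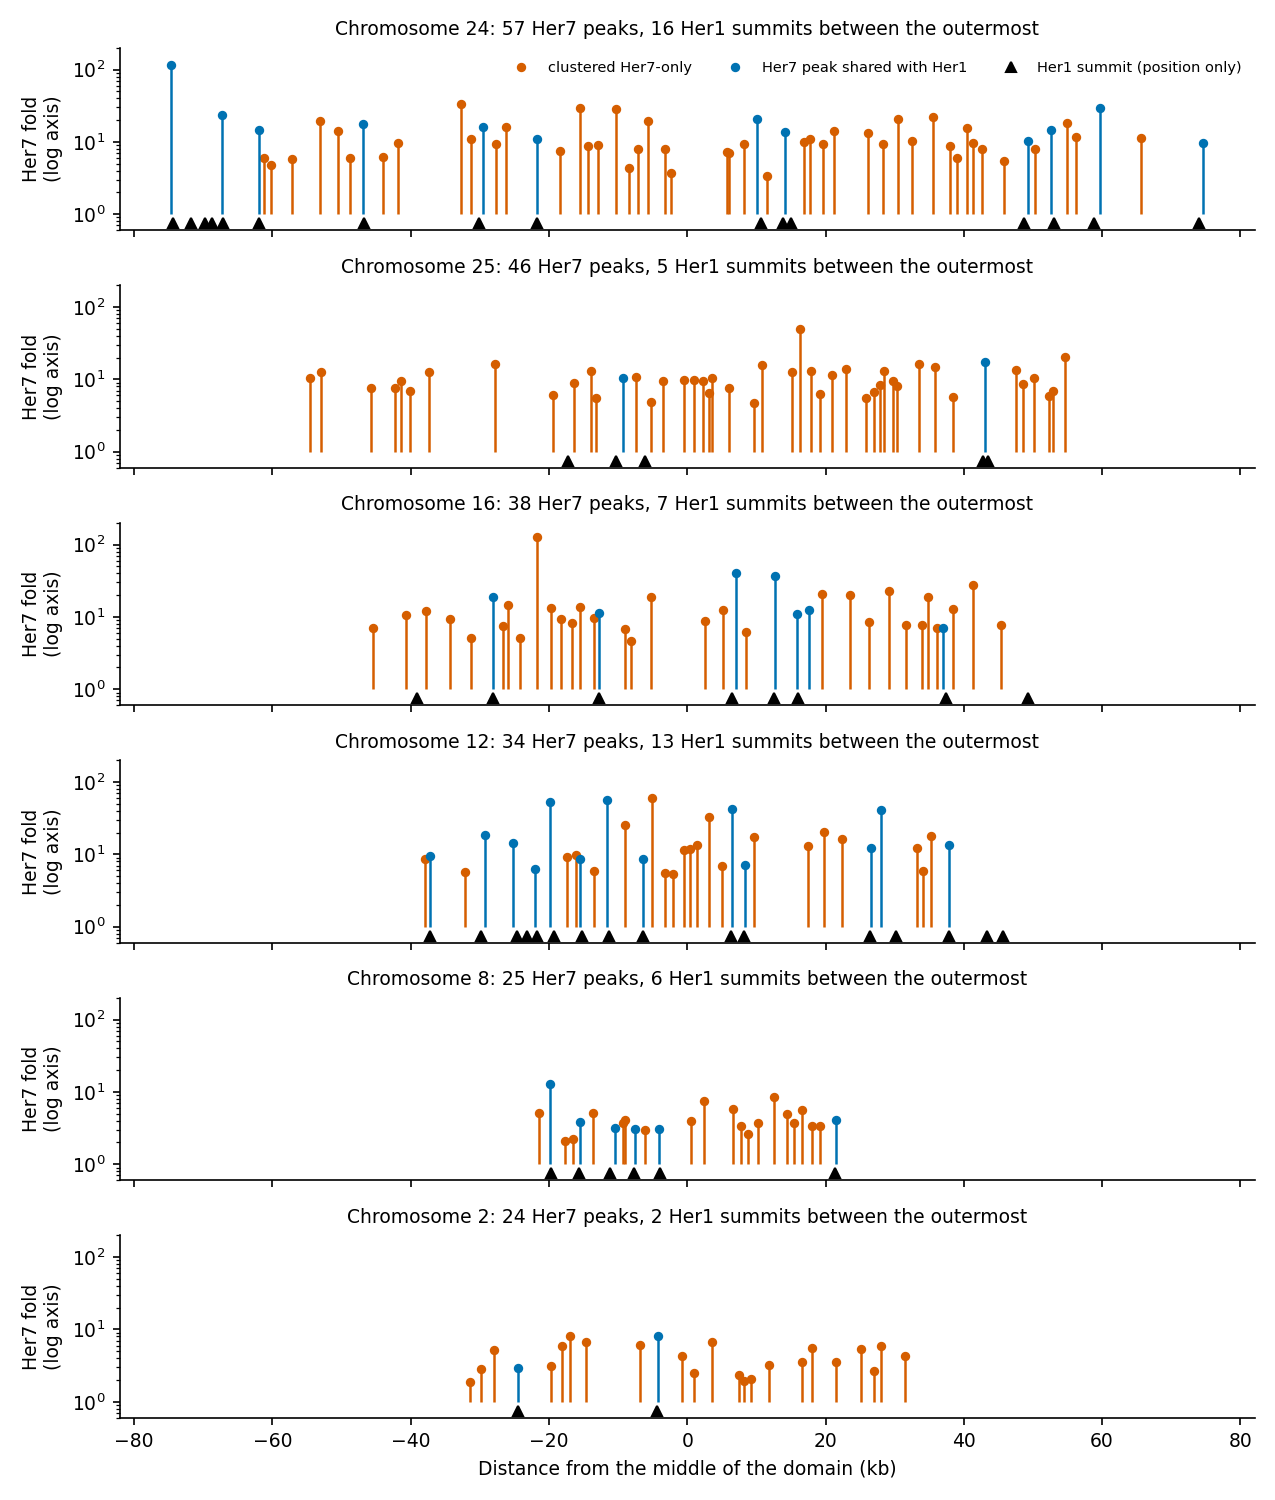
Her7 fold enrichment (log axis) against distance from the middle of the domain for the 6 domains with most Her7 peaks: clustered Her7-only peaks in orange, shared peaks in blue, and Her1 summits as black triangles that mark position only. The 4 widest domains reach higher folds (up to 127 at a member of chromosome 16) than those of chromosomes 8 and 2, whose members stay at or below 8.46.

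Of the domains with no Her1 summit inside, the one with the highest summed fold enrichment lay on chromosome 4 from 26863347 to 26893749. All its 11 Her7 peaks were members, with fold enrichments of 4.22 to 44.3 and 12 to 103 fragments. The domain ended shortly before position 27000000, from which chromosome 4 was left out. In the part left out, 137 of 285 Her7-only peaks (48.1%) had another Her7 summit within 10 kb. The nearest Her1 summit lay 15350 bp from the left end of the domain. The 3 peaks at the right end of the domain had the highest folds, 39.6, 44.3 and 31.7, on backgrounds of at most 1.56 times the floor. On chromosome 17, from 42910541 to 42956594, 15 members lay in a row with no shared peak (fold enrichment 5.04 to 23.2, 8 to 45 fragments), and the nearest Her1 summit was 160475 bp away. On chromosome 23, from 12617515 to 12633513, 1 of the 6 members had a fold enrichment of 105, with 214 fragments at 12624277, while the other 5 had 7 to 36 fragments.

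The other 2 of these 5 domains were compact pairs. On chromosome 9 summits at 4515016 and 4516456 had fold enrichments of 131 and 49.0 (173 and 64 fragments). On chromosome 20 summits at 39429356 and 39431248 had 31.7 and 139 (36 and 161 fragments). The nearest Her1 summit was over 1 Mb away from both pairs, at 1232315 bp on chromosome 9 and 1585214 bp on chromosome 20. Both stood near the floor of the background, at 1.94 and 1.00 times.

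The Her1 peaks inside the domains differed from those elsewhere in pileup and background. Their median pileup was 28.5 fragments (n = 224), against 11 for the 1467 Her1 peaks outside the domains. Their median background was 23.8 times the Her1 floor, against 3.39 times, and it exceeded 10 times the floor at 67.9% of them against 30.9%. Their median fold enrichment was 8.67, against 8.71 outside. Of these 224 Her1 peaks, 189 overlapped a Her7 peak, so the comparison mixes position in a domain with overlap. In the Her7 list the background exceeded 10 times the floor at 66.0% of clustered shared peaks. Among isolated shared peaks, which lie outside the domains, it was 61.5%. A background above 10 times the floor was thus not particular to the domains. Above 100 times the floor, clustered peaks had the larger shares. These were 27.3% of clustered and 11.9% of isolated shared peaks, and 20.7% of clustered and 2.93% of isolated Her7-only peaks. The part of the background in the co-occurrence of Her7 and Her1 peaks was not tested.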

How the data were processed

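The data are 2 narrowPeak tables, of the Her7-YFP anti-GFP sample (replicate 1) and the Her1-YFP anti-GFPpoly sample. The other 6 of the 8 samples, among them the second Her7-YFP replicate and the negative controls, were not analysed here. Groups follow the sample titles. The peak names in the deposited files carry MACS2 and a q of 0.01, and MACS2 2.2.7, Bowtie2 2.5.1 and SAMtools 1.17 are named in the submitters' processing notes. The build, the control library, any pooling and how duplicates were handled are not given in the sources used here. The deposited values are a fold enrichment (a ratio over the local background) and a −log10 p and −log10 q at each summit, all the authors' own. The deposited whole-number score and the start, end and summit columns (other values, in bp) come from the same caller. The score was not used.

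Pileup and background were computed from fold and −log10 p with the caller's formulas: the fold is the pileup plus 1 over the background plus 1, and p is a Poisson upper tail. For 100% of the peaks of both lists a whole-number pileup gave back the −log10 p to a relative difference of at most 3e-05. For 4 members more than 1 pileup did, and the closest was taken. On 1000 simulated peaks 100% of pileups were returned, and 100% of 267 simulated domains. Depth in reads is not stated.

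The members, lists and thresholds were chosen with earlier results of these data known. No test was made, as there is 1 list per protein. Named were the 10 members with the highest −log10 q, the 6 domains with most Her7 peaks, the 5 domains with and the 5 without a Her1 summit that had the highest summed member fold, and the peaks nearest to the 10 kb limit. The split of large domains by background, and the chromosomes named for density, were chosen after values were seen. Computations used Python 3.11.15 with pandas 2.3.3 and scipy 1.17.1.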

Additional observations from a re-analysis of the deposited data

How the results depend on the processing

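The 8 results were recomputed under 55 alternatives: 33 changed a share or median by no more than its interval, or a count by no more than 1.5 times, and 22 changed it further. No paired analysis was possible because a single peak list was used for each protein, which also leaves no replicate to drop. A limit on background of 10 times the floor in both lists moved all 8 results: it gave 458 members in 149 domains, 18.2% of Her7-only peaks were clustered, 28.2% of domains had 3 or more Her7 peaks (37.5% without the limit), 20.8% of domains held a Her1 summit, 29.0% of members had one within 10 kb, the median spacing was 2375 bp and the median fold 12.2. Under that limit some Her1 peaks are gone, so the Her7 peaks that overlapped only those count as Her7-only. The lower Her1 shares also reflect fewer Her1 peaks. Joining summits within 5 kb or 20 kb gave clustered shares of 24.7% and 35.8%, 42.8% and 34.3% of members near a Her1 summit, and median spacings of 1561 and 2470 bp. Merging summits under 1 kb apart gave 26.6% clustered and a spacing of 2375 bp. Counting Her1 summits up to 10 kb outside put Her1 in 38.1% of domains, and counting only Her1 peaks without a Her7 overlap in 7.61%. A −log10 q of at least 5 gave a median fold of 9.01. Leaving out the large domains, an alternative chosen after seeing the data, gave 27.9% of members near a Her1 summit, a spacing of 2405 bp and a median fold of 9.40. Counting Her1 peaks within 500 bp as shared moved none of the 8 results. Weak Her1 sites may be missed at the depth of that list.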

Other observations

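The same rule was applied to Her7 peaks outside the region described. On the long arm of chromosome 4, 137 of 285 Her7-only peaks (48.1%, 42.1 to 54.0) had another Her7 summit within 10 kb, with a median fold enrichment of 6.30 and a median background of 8.68 times the floor. On unplaced scaffolds it was 75 of 179 (41.9%, 34.6 to 49.5), with medians of 5.42 and 114 times. On alternate contigs it was 90 of 577 (15.6%, 12.7 to 18.8), with medians of 8.25 and 5.05 times. The lengths of contigs and scaffolds were not known, and their part in these shares was not tested.

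Her1 peaks also lay close to each other. Of the 1691 Her1 peaks of the numbered chromosomes outside the chromosome 4 long arm, 527 (31.2%, 29.0 to 33.4) had another Her1 summit within 10 kb, and of the 1213 that overlapped no Her7 peak, 242 (20.0%, 17.7 to 22.3). The lists differ in length, so these shares are not set against those of Her7.

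In the domains of 5 or more Her7 peaks, the outermost and the inner positions held members at similar rates, 71 of 96 (74.0%, 64.0 to 82.4) and 420 of 531 (79.1%, 75.4 to 82.5). The outermost members had a median pileup of 74 fragments and a median background of 63.8 times the floor, against 56.5 fragments and 22.3 times for inner members. Members were pooled over these domains. Each domain gave only its end peaks to the outermost group, so domains with many peaks weighed more among inner members. Position was not separated from this difference in domains.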
